A study of Mus musculus with 12 samples.

Results

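Mitochondrial ribosomal proteins are the protein subunits of the ribosome inside mitochondria. Their genes were found in a table of 30743 genes from fetal mouse liver as every row whose symbol was Mrpl or Mrps followed by a number and at most 1 letter, and 76 genes met that rule. The samples were 12 whole livers of male C57BL/6J fetuses taken at 15 ± 0.5 dpc (days post coitum), 6 from dams on a control diet with 13.5 kcal% fat (Control) and 6 from dams on a high-fat diet with 60 kcal% fat (HFD). The dams, C57BL/6 CD45.2 mice, ate their diet for 12 to 14 weeks. The labels give no litter, so livers of 1 group may have shared a dam. PolyA RNA was sequenced, and the column used here holds 1 mean level per gene over both diets. The columns that compare the diets are the authors' own and were not used, so each level below describes all 12 livers together and the diets are not compared.

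The mitochondrial ribosome translates the few mRNAs that mitochondrial DNA encodes, all of them for subunits of oxidative phosphorylation. Its proteins are encoded in the nucleus, made on cytosolic ribosomes and imported. The large subunit joins amino acids and is anchored at the inner membrane, the small subunit binds and decodes the mRNA, and each is built of proteins that have a counterpart in bacteria together with proteins found only in mitochondria. The fetal liver at this age is the main site of blood formation, and it holds many red cell precursors beside the hepatoblasts from which hepatocytes form.

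The regulators NRF1, the ETS factors (GABP among them) and YY1, are known to act on nuclear genes for mitochondrial proteins and bind short DNA motifs that a text search can find. Matches are shown here because these letters were more frequent in promoters of mitochondrial ribosomal protein genes than in other promoters. RefSeq (GRCm38.p6) gave 73 promoter windows, 250 bases before to 50 bases after a transcript start, for 67 of the 76 genes. The letters searched on both strands were GCGCATGC for NRF1, CCGGAAG for ETS and AAGATGGCG for YY1; the ETS letters end in the 3 letters with which the YY1 letters begin, so 1 stretch can hold both. For each motif the 3 genes with the highest level are shown, as 30 bases in the direction of the gene, with the match nearest to the start in capitals (in a match on the other strand the capitals are the reverse complement).
Mrpl10, NRF1, chr11:97041437-97041466, + strand: cccagctccacGCATGCGCatagcggccct
Mrpl9, NRF1, chr3:94443299-94443328, + strand: ggcgcagctgcGCATGCGCggggtccttct
Mrpl39, NRF1, chr16:84735349-84735378, - strand: aggagaggcgcGCATGCGCccccgcgtggc
Mrpl18, ETS, chr17:12916312-12916341, - strand: actgaaaacgCCGGAAGtagggggctgcgg
Mrpl34, ETS, chr8:71464878-71464907, + strand: aactacagctcCCGGAAGgccccgcggcaa
Mrps26, ETS, chr2:130563732-130563761, + strand: ctccgcggccaCTTCCGGgccgggcgcagg
Mrpl37, YY1, chr4:107066821-107066850, - strand: tgcacgggcaAAGATGGCGgcgtccaggta
Mrpl35, YY1, chr6:71823742-71823771, - strand: ggcaggctgcAAGATGGCGgcttccatctt
Mrpl36, YY1, chr13:73330968-73330997, + strand: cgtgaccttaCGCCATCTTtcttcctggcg

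The ETS letters stood in 24 of the 73 windows of mitochondrial ribosomal protein genes (32.9%), against 8.86% of all 32851 windows and 16.8% of the 8247 windows of genes above 1 CPM (counts per 1e6 reads) in these livers. The NRF1 letters stood in 8 windows (11%), against 2.71% of all windows and 5% of those of genes above 1 CPM. The YY1 letters stood in 8 windows (11%), against 1.40% and 3.14%. At least 1 of the motifs was present in 34 windows (46.6%, 95% exact binomial interval 34.8 to 58.6%), against 12.1% of all windows and 23.0% of windows of genes above 1 CPM. The interval treats the windows as independent draws. They are instead all the windows that RefSeq gave for these genes, and windows of 1 gene overlap. In the windows shown, the first matched base lay 26 bases before the start in Mrpl9, 37 in Mrpl34, 14 in Mrps26 and 31 in Mrpl36, and at base 27 after it in Mrpl37 and base 24 in Mrpl35. The matches of Mrpl10 (134 bases before the start), Mrpl39 (123) and Mrpl18 (240) lay farther out. Starts differ between annotations: in 45 of the 73 windows a GENCODE exon of the same gene reached into the bases before the RefSeq start, and the matches shown for Mrpl39, Mrpl18, Mrps26 and Mrpl36, like those after the start in Mrpl37 and Mrpl35, lay in such an exon, whereas those of Mrpl10, Mrpl9 and Mrpl34 lay before the gene. A match is a stretch of letters, not a bound site. Sites were printed for the highest genes only, and genes with a motif were not higher throughout. The median log2 CPM with and without the letters was 4.8 and 5.8 for ETS, 5.0 and 5.4 for NRF1, and 5.8 and 4.9 for YY1. These differences were not tested.

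Another feature of position was a neighbour that starts close by. For 22 of the 76 genes (28.9%) a protein-coding gene of the table started on the opposite strand, pointing away, within 1000 bases or with an overlap of up to 300 bases, against 8.79% of the 18721 protein-coding genes and 12.5% of the 8448 above 1 CPM. In 13 of the 22 pairs both genes were above 1 CPM, and in 7 pairs the neighbour was at or below it. For comparison, 61 of the 76 genes (80.3%) and 8448 of the 18721 protein-coding genes were above 1 CPM. Pairs of other genes were not counted in this way, so these counts show no trait of the 76 genes. Mrps27, a small subunit protein without a bacterial counterpart, was at 55.9 CPM and its neighbour Ptcd2 at 61.6 CPM, with 81 bases between the starts. Mrpl40 was at 74.7 CPM beside Hira, a histone chaperone, at 65.9 CPM. Mrps12, the counterpart of the bacterial decoding protein S12, was at 54.6 CPM, and Sars2, the mitochondrial seryl-tRNA synthetase, whose gene starts 172 bases away, was at 30.8 CPM. Other pairs stood far apart. Mrpl32 was at 0.178 CPM beside Psma2, a proteasome subunit, at 207 CPM. Mrps7 was at 126 CPM beside Gga3 at 0.165 CPM, and Mrpl36 at 65.4 CPM beside Ndufs6, a complex I subunit, at 0.235 CPM. Levels of the 2 genes of a pair are given side by side and were not divided by length. Mrps7 and Gga3, and Mrpl36 and Ndufs6, overlap at their starts. Reads there are uncertain, since the library steps that the authors describe include none that keeps the strand.

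**Figure D1:**
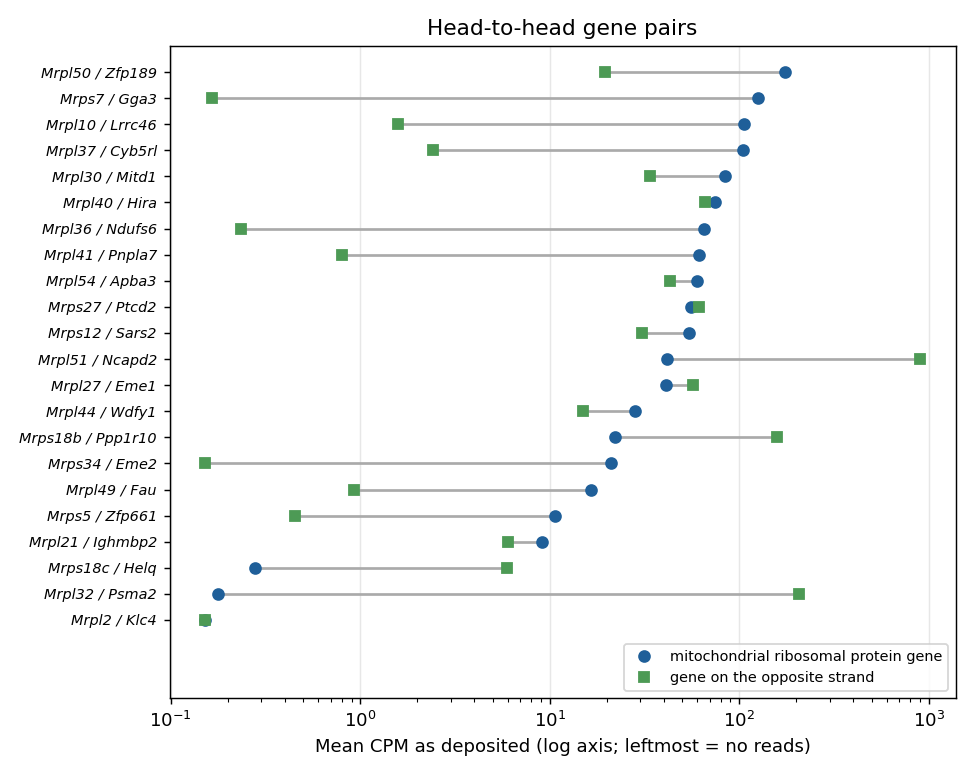
Mean CPM as deposited (log axis) of 22 mitochondrial ribosomal protein genes (circles) and of the gene that starts beside each on the opposite strand (squares), 1 pair per row with a line between them. The lines of Mrps27, Mrpl40 and Mrps12 are short, those of Mrpl32, Mrps7, Mrpl36 and Mrps34 run over most of the axis, and Mrpl2 and Klc4 are both at the lowest value of the table.

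As a check of the tissue, the hepatoblast markers Alb (63314 CPM) and Afp (54525 CPM) and the red cell markers Hbb-b1 (24904 CPM) and Klf1 (692 CPM) were among the abundant genes. Mpo of myeloid cells was at 759 CPM, Cdh5 of endothelium at 144 CPM and Col1a1 of mesenchyme at 468 CPM, so RNA of several cell types entered each level, and more cells of a type cannot be told apart from more RNA per cell. Other defining markers were near or at the lowest value: Alas2 of red cells was at 0.704 CPM, Ptprc of white cells at 0.774 CPM, Itgam of myeloid cells at 0.248 CPM and Pecam1 of endothelium at 0.152 CPM. For Hba-a1, also searched, no value was found under that symbol.

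The lowest value of the table, -2.71 log2 CPM or 0.152 CPM, was shared by 11091 of the 30743 genes (36.1%), and 10171 genes (33.1%) were above 1 CPM. The depth followed from this column: a small constant, the prior count, stands in place of reads at the lowest value, and the steps above it corresponded to a mean library of 13100000 reads, so that 1 CPM stood for 134 reads over the 12 libraries. Intervals below are exact Poisson intervals at 95% for the reads behind a mean with the prior count taken out; they cover counting error only. The spread between livers is not known from a mean, and no level below has an SD.

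Most mitochondrial ribosomal protein genes were well detected. Of the 76, 61 (80.3%) were above 1 CPM, against 33.1% of all 30743 genes and 51.8% of the 19652 genes that had reads. A further 7 had reads but stayed below 1 CPM, and 8 were listed at the lowest value, where a count of 0 allows up to 0.0190 CPM. None lay between 0.5 and 1 CPM. The nearest genes on either side were Mrps2 at 0.451 CPM and Mrpl48 at 1.55 CPM, and whether this gap separates 2 sets was not tested. The median over all 76 was 5.20 log2 CPM (36.7 CPM), and over the 61 it was 54.6 CPM. Within the 61 the spread was narrow in its middle, with quartiles at 22.2 and 74.7 CPM. In steps of CPM, 9 genes lay between 1 and 10, 12 up to 30, 15 up to 60, 18 up to 100 and 7 above 100. With more than 1000 reads behind 55 of them, the counting interval was between 1.15 and 13.5% to either side. In the order of CPM, 33 of the 60 neighbouring pairs above 1 CPM had overlapping intervals, so many places in this order were not resolved by counting alone.

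**Figure D2:**
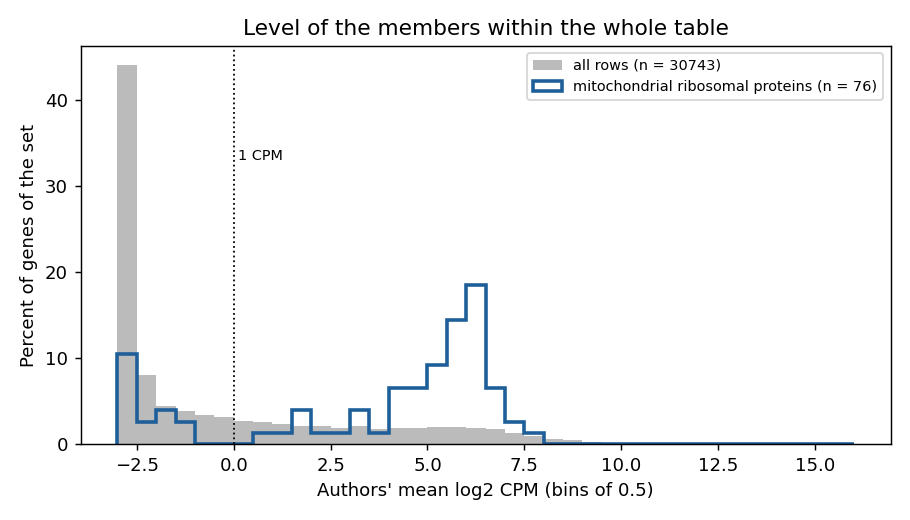
Share of genes (vertical axis, percent of each set) by mean log2 CPM as deposited (horizontal axis, bins of 0.5), for all 30743 genes in grey and the 76 mitochondrial ribosomal protein genes in blue. Most of the 76 sit in a peak between 4 and 7.5 log2 CPM, a second small group sits below -1 with nothing between -1 and 0.5, and the grey bar at the lowest value is the tallest of the table.

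**Figure D3:**
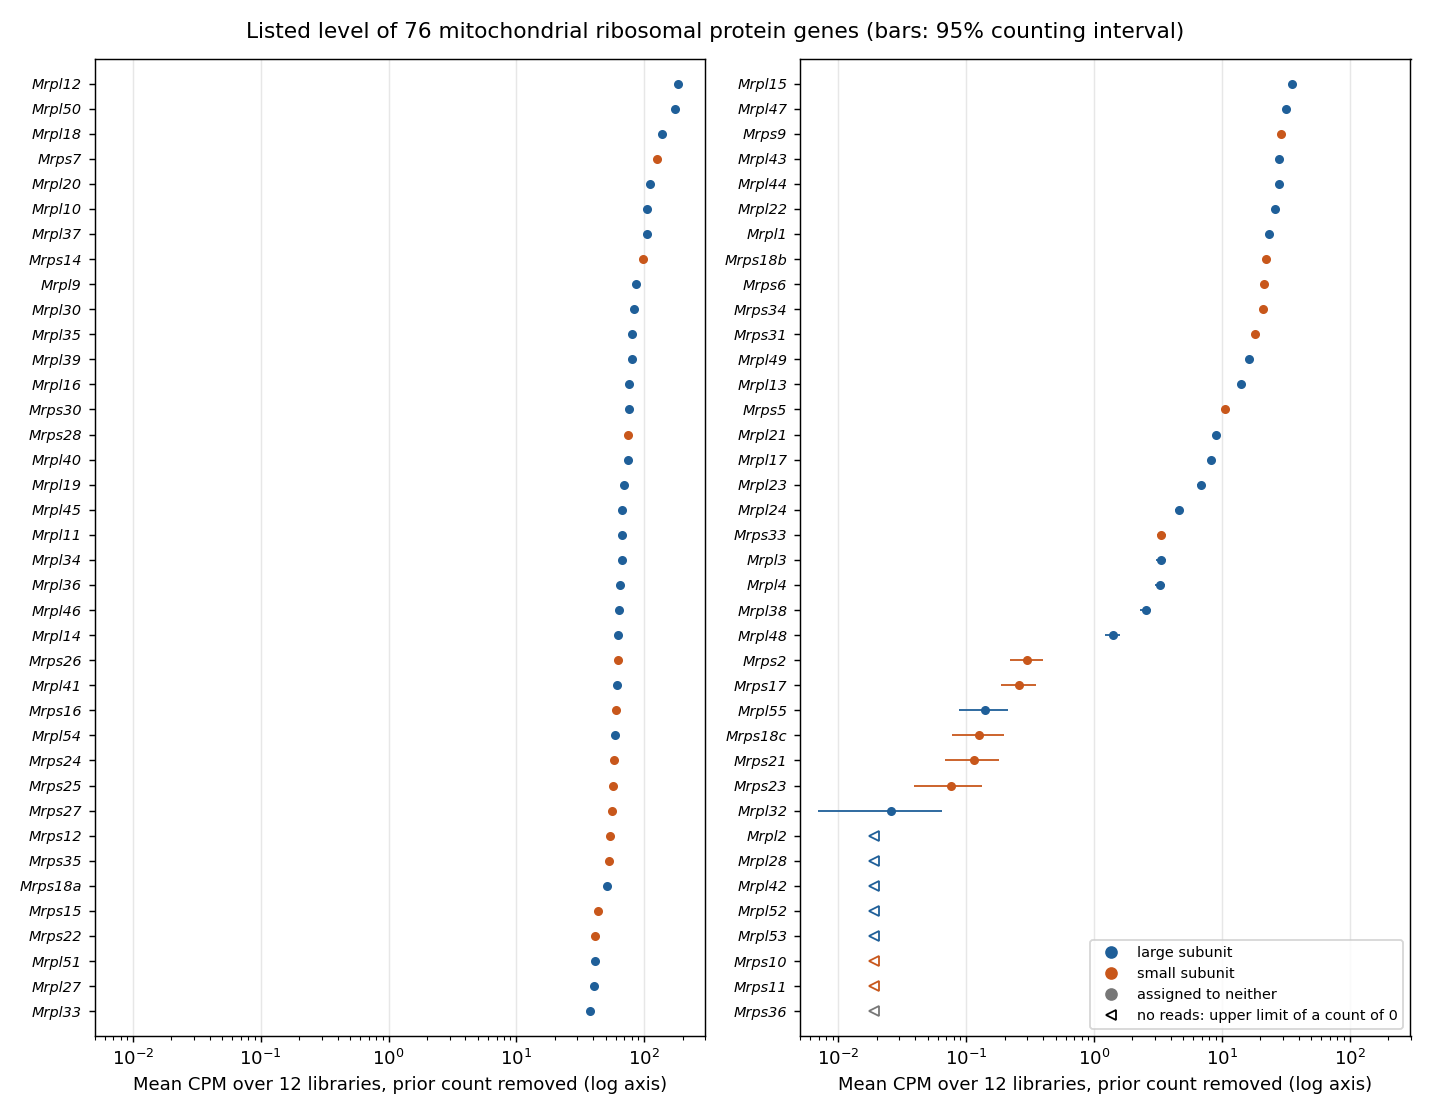
Mean CPM with the prior count taken out (log axis, not divided by transcript length) of the 76 genes in order, the higher 38 on the left, with 95% Poisson counting intervals; blue, orange and grey mark the large subunit, the small subunit and the gene in neither, and open triangles mark 8 genes listed without reads at the limit that a count of 0 allows. The points descend gently from Mrpl12 to Mrps5, fall more steeply to Mrpl48 at 1.55 CPM as deposited, and continue below a gap with Mrps2 and Mrps17.

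To compare genes, levels were divided by the length of the longest GENCODE transcript, in kilobases (CPM per kb), because a longer transcript yields more fragments. The median was 3.80 log2 CPM per kb (14.0 CPM per kb) over the 76 genes. It was -1.97 log2 CPM per kb over all genes with a length and -0.70 over those that also had reads. Mrpl12, which forms the flexible stalk of the large subunit that recruits translation factors, was the highest at 140 CPM per kb. Its gene lies at chr11:120484613-120489065 (GRCm38, + strand), and its level of 185 CPM rested on 29085 reads (counting interval 183 to 187 CPM). Mrpl20 (chr4:155802878-155809975, + strand), a large subunit protein with a bacterial counterpart, followed at 136 CPM per kb. Mrpl18, related to the bacterial protein that binds 5S RNA, was at 113 CPM per kb, and Mrpl34 was at 110 CPM per kb.

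The other genes among the 10 highest per length were Mrpl54 (98.7 CPM per kb), Mrpl14 (97.8), Mrps28 (95.4), Mrpl50 (82.4), Mrpl41 (79.4) and Mrpl36 (70.8). Large subunit genes made up 9 of these 10, with Mrps28 as the exception, beside 49 of all 76 genes. By coding length Mrps14 and Mrps7 were among the 10 highest and Mrps28 was not. Bacterial counterparts exist for Mrpl14, Mrps28 and Mrpl36, and Mrpl54, Mrpl50 and Mrpl41 are found only in mitochondria. Of the 10 highest per kb of transcript, 7 were also among the 10 highest per kb of coding sequence, so the choice of length moved some genes in this order. By coding length Mrpl50 was the highest (365 CPM per kb), above Mrpl12 (306).

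By place in the ribosome, the 49 large subunit genes (every Mrpl gene with Mrps30 and Mrps18a, which structures place there) had a median of 4.31 log2 CPM per kb, and the 26 small subunit genes had 3.57, a difference of 0.74 on the log2 scale. This held among mitochondria-specific genes (0.83) but turned among genes with a bacterial counterpart, where the medians were 3.80 in the large and 3.93 in the small subunit (-0.13). Above 1 CPM were 42 of the 49 (85.7%) and 19 of the 26 (73.1%). The 46 genes with a bacterial counterpart and the 29 without one had medians of 3.80 and 3.88 log2 CPM per kb, a difference of -0.07 that changed sign with the gene set (given at the end). Above 1 CPM were 36 of the 46 and 25 of the 29. The lowest share was that of small subunit genes with a bacterial counterpart, 10 of 16. The 6 others were Mrps2, Mrps10, Mrps11, Mrps17 and Mrps21, each with 2 or more RefSeq mRNAs, and Mrps18c with 1. Of the 10 above 1 CPM, Mrps12, Mrps14 and Mrps24 had 2 or more. Genes with 2 or more were less often above 1 CPM (given below), and the part of this in the share was not tested. Genes are not replicates, so these differences carry no test.

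Within the large subunit, Mrpl10, which holds the stalk formed by Mrpl12, was at 61.9 CPM per kb, and Mrpl11, whose bacterial counterpart sits at the stalk base, was at 22.2 CPM per kb. Of genes whose bacterial counterparts lie around the exit of the nascent chain, Mrpl22 was at 36.1 CPM per kb, Mrpl47 at 9.58, Mrpl24 at 3.60, Mrpl23 at 1.89 and Mrpl17 at 1.16. Mrpl45, which holds the exit to the inner membrane, was at 27.9 CPM per kb. Mrpl3, whose bacterial counterpart reaches towards the peptidyl transferase centre, was at 0.885 CPM per kb, and Mrpl4 was at 1.48 CPM per kb. Mrpl44, a mitochondria-specific protein altered in inherited cardiomyopathy, was at 19.8 CPM per kb. The highest gene with a bacterial counterpart was Mrpl12 and the highest mitochondria-specific large subunit gene was Mrpl54. By deposited value per kb the lowest were Mrpl32 (0.0590 CPM per kb) and Mrpl42, which like Mrpl52 and Mrpl53 was listed at the lowest value. Mrpl32 had 4 reads, whereas Mrpl2 and Mrpl28, also with a bacterial counterpart, had none. They stood above Mrpl32 (0.148 and 0.134 CPM per kb) only because their transcripts are shorter. These places hold for the longest transcript: by coding length Mrpl50 (365 CPM per kb) stood above Mrpl54 (147). The order around the exit also changed and its values lay closer together. By coding length Mrpl47 was at 42.6 CPM per kb, Mrpl22 at 42.2, Mrpl17 at 16.0, Mrpl23 at 13.6 and Mrpl24 at 7.43. The genes of these role groups that are not among the 10 highest or lowest were chosen after their values were seen.

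Within the small subunit, Mrps28 was the highest, followed by Mrps7, the counterpart of the protein that organises the head of the bacterial small subunit, at 64.1 CPM per kb, and Mrps12 at 61.8 CPM per kb. The lowest with a bacterial counterpart was Mrps10, which like Mrps11 was listed at the lowest value and differed from it only by length. The highest mitochondria-specific gene was Mrps27 at 30.2 CPM per kb, and the lowest with reads was Mrps23, at 0.163 CPM per kb from 12 reads. By coding length the highest places changed: Mrps14 (256 CPM per kb) stood above Mrps28 (134). Among mitochondria-specific genes Mrps25 (111) then stood above Mrps27 (44.9). The 3 Mrps18 genes descend from 1 bacterial protein and take different places in the mitochondrial ribosome. Mrps18a, in the large subunit, was at 51.4 CPM (counting interval 50.1 to 52.4) and 23.1 CPM per kb. Mrps18b, a small subunit protein, was at 22.2 CPM (21.3 to 22.8) and 20.6 CPM per kb. Mrps18c, which occupies the bacterial position, had 20 reads and was at 0.279 CPM and 0.340 CPM per kb as deposited. With the prior count taken out it was at 0.13 CPM (0.078 to 0.196). Per kb of the longest transcript Mrps18a and Mrps18b lay close together, but this depended on the length used. Divided by coding length they were at 87.4 and 29.1 CPM per kb. Mrps18c stood far below both by either length, at 0.650 CPM per kb of coding sequence.

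**Figure D4:**
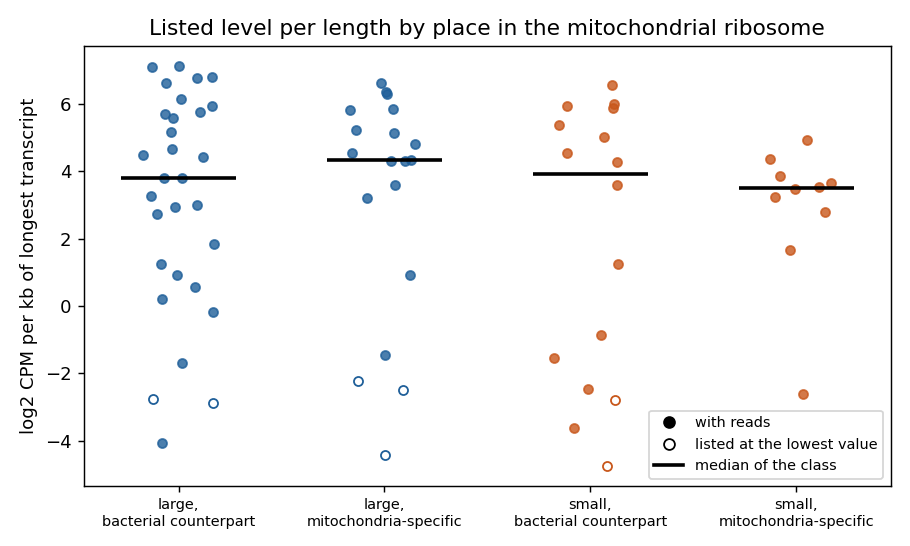
Mean level per length (log2 CPM per kb of the longest transcript, 1 point per gene) of the 75 genes assigned to a subunit, split by subunit and by whether a bacterial counterpart is known; black lines are medians and open circles are genes listed at the lowest value, whose height reflects only their length. The 4 medians lie between 3.51 and 4.34, much closer together than the points within any class.

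The 15 genes at or below 1 CPM came from both subunits. Listed at the lowest value were Mrpl2, Mrpl28, Mrpl42, Mrpl52 and Mrpl53 of the large subunit, Mrps10 and Mrps11 of the small subunit, and Mrps36. Mrps36, at chr13:100735955-100744659 (- strand), is assigned here to neither subunit, since the protein is known as a part of the 2-oxoglutarate dehydrogenase complex. Those with some reads were Mrpl32 (4 reads over 12 libraries), Mrps23 (12), Mrps21 (18), Mrps18c (20), Mrpl55 (22), Mrps17 (41) and Mrps2 (47). Mrpl2 is the counterpart of a bacterial protein at the core of the peptidyl transferase centre, and Mrps2, Mrps10, Mrps11 and Mrps17 have counterparts in the bacterial small subunit. These numbers and the limit from a count of 0 describe what was counted for each symbol; a value at or near 0 in this table does not show that the RNA was absent, since how reads were assigned is not given. With the deposited values, the 10 lowest per kb were Mrpl2, Mrpl28, Mrpl32, Mrpl42, Mrpl52, Mrps2, Mrps10, Mrps11, Mrps17 and Mrps23, and the order among those without reads reflects only their length.

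The annotation of these genes moved with their level. Of the 53 genes with 1 RefSeq mRNA, 48 (90.6%) were above 1 CPM, with a median of 4.31 log2 CPM per kb. Of the 23 with 2 or more, 13 (56.5%) were, with a median of 0.57 log2 CPM per kb. By GENCODE transcripts the split was 35 of 37 genes with up to 3 transcripts against 26 of 39 with 4 or more, and Spearman's rho between log2 CPM and the number of transcripts was -0.53 over the 76 genes, a description over points that share all 12 libraries. By RefSeq mRNAs, other families had a split in the same direction. Of cytosolic ribosomal protein genes 54 of 58 with 1 RefSeq mRNA and 12 of 18 with more were above 1 CPM, and of nuclear oxidative phosphorylation genes 51 of 58 and 13 of 23. Over all protein-coding genes the shares were 48.6% of 11194 and 40.6% of 7061. By GENCODE transcripts the split was not general: 15 of 17 cytosolic ribosomal protein genes with up to 3 transcripts and 51 of 59 with more were above 1 CPM (88.2 and 86.4%), 28 of 32 and 38 of 51 oxidative phosphorylation genes (87.5 and 74.5%), and over all protein-coding genes the direction turned, with 37.9 and 51.4%. The markers listed above at or below 1 CPM, Alas2, Ptprc, Itgam and Pecam1, each had 2 or more RefSeq mRNAs, while Alb and Afp had 1. The part of the annotation in the low values was not tested. The exceptions went both ways: Mrpl32, Mrpl28, Mrpl52, Mrpl53 and Mrps18c had 1 RefSeq mRNA and were at or below 1 CPM, whereas Mrpl10 (3 mRNAs, 106 CPM) and Mrpl39 (4 mRNAs, 80.2 CPM) were far above it.

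**Figure D5:**
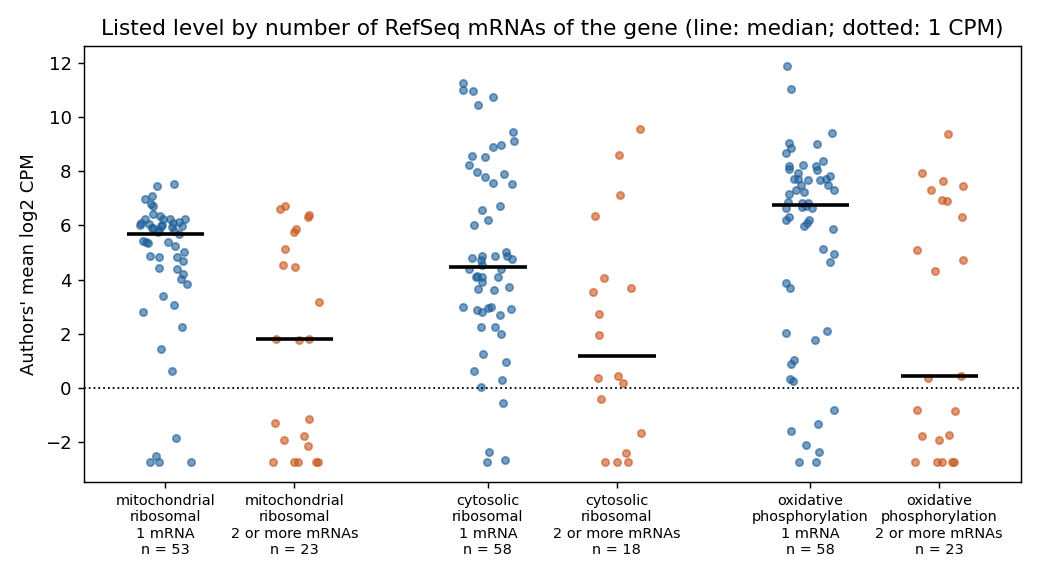
Mean log2 CPM as deposited (vertical axis, 1 point per gene) by number of RefSeq mRNAs of the gene, for mitochondrial ribosomal, cytosolic ribosomal and oxidative phosphorylation genes; black lines are medians and the dotted line is 1 CPM. In each of the 3 families the median of genes with 2 or more mRNAs lies below that of genes with 1, and both sides hold genes above and below 1 CPM.

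Sequence shared with other genes did not separate the low genes in the same way. Of all 50-base windows in the GENCODE transcripts of a gene, the median share found in transcripts of another gene on either strand was 1.25% for the 15 genes at or below 1 CPM and 3.85% for the 61 above it. No such window was found for 6 of the 15 and 18 of the 61. Mrpl53, listed at the lowest value, shared 82.0% of its windows, but Mrps34 shared 71.8% and Mrps25 68.2%, and they were at 21.1 and 56.9 CPM. Reads in such shared sequence are uncertain in the same way.

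Against the other ribosome, the 76 genes had a median level per length of 3.80 log2 CPM per kb, and the 76 of 78 cytosolic ribosomal protein genes with a length had 3.71, a difference of 0.09 that was 1.10 without division by length. Above 1 CPM were 68 of the 78 (87.2%). The medians do not describe the upper part, where the cytosolic genes were higher. Without division by length their upper quartile was 172 CPM, against 67.2 CPM for the 76 genes. Their highest level was 2441 CPM, against 185 CPM. Cytosolic genes shared more sequence with other genes, with a median of 24.2% of windows against 3.34% for the mitochondrial ones, and the part of this in their levels was not tested. Against the 84 nuclear genes for oxidative phosphorylation, whose complexes also hold the products of the mitochondrial ribosome, the median was lower, 3.80 against 6.07 log2 CPM per kb over the 83 with a length (a difference of -2.27 on the log2 scale, and -1.05 without division by length), although a like share of them was above 1 CPM (67 of 84, 79.8%). That list was drawn by symbol and takes in several isoforms of some subunits, and the part of this in its share was not tested.

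Proteins of the mitochondrial ribosome that carry other symbols were found in all 7 cases searched, 5 of them above 1 CPM. Aurkaip1 of the small subunit and Gadd45gip1 of the large subunit were both at 121 CPM, Mrp63 (now Mrpl57) at 66.9 CPM, Dap3, a GTP-binding protein of the small subunit, at 11.8 CPM and Ptcd3 at 3.14 CPM. Chchd1 and Ict1 (now Mrpl58), a peptidyl-tRNA hydrolase in the large subunit, were listed at the lowest value. With them the count above 1 CPM became 66 of 83 genes.

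Other genes of mitochondrial translation are given by list, with medians not divided by length. Of 11 translation factors 7 were above 1 CPM (list median 6.00 CPM), led by the elongation factor Gfm1 at 133 CPM, while the elongation factor Tufm and the initiation factor Mtif3 were listed at the lowest value. Of 17 mitochondrial aminoacyl-tRNA synthetases 12 were above 1 CPM (list median 7.92 CPM), among them Iars2 at 50.5 CPM, and Rars2 and Yars2 were listed at the lowest value. Lars2, the leucyl-tRNA synthetase, stood apart at 4019 CPM, with Iars2 the next highest. Sequence shared with other genes was not searched for these lists, and why Lars2 stood apart was not tested. Of 20 assembly factors 18 were above 1 CPM, led by the rRNA methyltransferase Mrm1 at 79.5 CPM, with a list median of 17.9 CPM and none at the lowest value. Mtrf1 (0.954 CPM), Pars2 (0.822 CPM), Gtpbp5 (0.693 CPM) and Mettl17 (0.559 CPM) lay between 0.5 and 1 CPM, where no mitochondrial ribosomal protein gene was found. The genes outside the ribosome named here were chosen after their values were seen.

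The 76 genes were spread over 17 chromosomes, with 10 on chromosome 11, 8 on chromosome 17 and 7 on chromosome 6. Coding length ran from 261 to 1326 bases with a median of 582, and the longest transcript from 488 to 7300 bases with a median of 1806. Over the 61 genes above 1 CPM, the level in log2 CPM followed neither length closely: Spearman's rho was -0.11 with coding length and -0.16 with the longest transcript, as a description over genes that share all libraries.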

How the data were processed

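RNA was measured in 12 livers (6 Control, 6 HFD). Per the labels, the authors made polyA libraries, trimmed reads with cutadapt 1.2.1, mapped them with Subread 1.3.6-p1 to the mm10 build and fitted the counts with edgeR; how reads were assigned to genes is not given in the sources used here. The deposited table holds a mean level per gene in log2 CPM over all libraries and the authors' own fold changes, p-values and adjusted p-values of HFD against Control under common and tagwise dispersion; those comparison columns were not used, and no column holds a single liver, so no test was made. A count test, which needs counts per liver, was not run.

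From the log2 values, the lowest value and the values of 1267 genes with 1 read gave the prior count and the mean library, and so the reads behind each mean (prior count 2). Of the table's symbols, 21065 and all 76 members matched GENCODE M21 (GRCm38). Promoters and mRNA numbers came from RefSeq. A motif was searched as plain letters. Genes were named by a rule: the 10 highest and 10 lowest per length, the extremes of each class, the Mrps18 genes, Mrps36, genes without reads and subunits with another symbol; other genes named were chosen after their values were seen. Members, lists and classes were chosen with earlier results of these data known. Figures were drawn with matplotlib 3.10.9, intervals came from scipy 1.17.1, and tables were handled with pandas 2.3.3 under Python 3.11.15.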

Additional observations from a re-analysis of the deposited data

How the results depend on the processing

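The count above 1 CPM held at 0.5 CPM (61) and 5 CPM (55), and the motif share near the start was 39.7%. The median of 5.20 log2 CPM was 5.41 without genes at the lowest value and 5.25 without Mrps36. The median of 3.80 log2 CPM per kb was 3.40 by exon union, 5.64 by coding length and 4.31 without genes at the lowest value. The difference of large and small subunit was 0.68 without division by length, 0.56 by exon union, 1.06 by coding length; by class, chosen after seeing the data, it was 0.83 among mitochondria-specific genes and -0.13, reversed, among conserved genes. That of conserved and mitochondria-specific genes was -0.30 without division, -0.13 by exon union, -0.19 by coding length and 0.037, reversed, with the 7 other subunits added; it has no stable sign, and the cause was not tested. Against cytosolic ribosomal proteins the difference was 1.10 without division by length, and against oxidative phosphorylation genes -1.05. Restriction to genes with 1 RefSeq mRNA, chosen after seeing the data, gave medians of 5.68 log2 CPM and 4.31 log2 CPM per kb and differences of 0.80 (large and small), 0.38 (conserved and specific, reversed), 0.16 (cytosolic) and -2.32 (oxidative phosphorylation). Of all alternative values, 7 stayed close to the first value, 19 moved and 3 changed sign. No paired analysis was possible because the result comes from a mean over all livers, and no liver could be left out for the same reason. The 15 genes at or below 1 CPM rest on at most 47 reads each, and what lowers them was not tested.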
